A study of Mus musculus with 4 samples.

Results

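Anxa1, Anxa2, Ahnak and Lgals3 are 4 of the 282 genes listed in a deposited comparison of 2 populations of mouse regulatory T cells (Tregs), the Foxp3-expressing CD4 T cells that restrain immune responses. They were picked by name, as genes known to be raised together in antigen-experienced T cells, and with their values in this comparison already known. RNA was sequenced from 4 libraries of Tregs from spleen and lymph nodes of male Foxp3RFP-Cre.RosaYFP Mll1 fl/fl mice, 6 to 8 weeks old. The 2 YFP-positive libraries (RFP+YFP+, genotype label MLL1KO) and the 2 YFP-negative libraries (RFP+YFP-, genotype label WT) carried the same pair of mouse numbers, 1 and 2. Both populations therefore carried the Cre, the reporter and the floxed Mll1 alleles, and YFP marked cells in which Cre had acted at the Rosa locus. The labels do not say whether a mouse number is 1 animal or a pool, so the spread between libraries may not be that between animals. Technical variation is part of that spread and cannot be separated. YFP status and the Mll1 genotype label coincide in every library and cannot be told apart. Kmt2a, the gene that encodes MLL1, and all 8 Treg-defining genes on the marker list, Foxp3 among them, were not analysed here, so neither the deletion nor the cell type was checked.

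Annexins bind membrane phospholipids when calcium rises. Annexin A1, encoded by Anxa1, is a mediator that dampens inflammation through formyl peptide receptors, and annexin A2, encoded by Anxa2, links membranes to the actin cortex together with the S100 protein encoded by S100a10. Ahnak encodes a giant scaffold protein that binds the annexin A2 complex and, in T cells, takes part in calcium entry. Lgals3 encodes galectin-3, a lectin that binds glycans on the cell surface and is also known as the macrophage antigen Mac-2. Transcripts of these genes are sparse in naive T cells and more abundant in effector and memory T cells.

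All 4 genes were lower in YFP-positive than in YFP-negative Tregs, with differences of 2.18-fold to 6.25-fold. Mean normalized counts were 6.25-fold lower for Lgals3 and 5.69-fold lower for Anxa1, against 2.90-fold for Anxa2 and 2.18-fold for Ahnak (n = 2 libraries per group). Among the 196 listed genes that were lower, ordered by the log2 fold change of the authors' deposited table, Lgals3 ranked 32, Anxa1 38, Anxa2 143 and Ahnak 188. The smallest absolute log2 fold change in the table was 1.00, and that of Ahnak was -1.12, so Ahnak lay close to the limit for being listed. Of the listed genes, 69.5% were lower and 30.5% higher, and the groups did not overlap in 100% of them. Limma with Benjamini-Hochberg adjustment likewise gave an adjusted p under 0.05 for 282 of 282 genes (100%). Every listed gene had been selected on these libraries, so the differences of the 4 genes are given as a description, without p-values. In RNA from sorted populations, fewer cells that express a gene and less RNA per cell cannot be told apart.

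The 4 genes lie apart in the genome, and the promoter window of Anxa1 differed from the others in base composition. Anxa1 (ENSMUSG00000024659, chromosome 19, 20373428 to 20390944, minus strand) and Ahnak (ENSMUSG00000069833, chromosome 19, 8989284 to 9076919, plus strand) lie 11296508 bases apart on 1 chromosome. Anxa2 (ENSMUSG00000032231) is on the plus strand of chromosome 9 from 69453620 to 69491795, and Lgals3 (ENSMUSG00000050335) is on the plus strand of chromosome 14 from 47367751 to 47386160 (mm10, as listed in the authors' deposited table). The nearest other listed gene to Anxa2 was Rora, 65373 bases away and also lower, with a log2 fold change of -2.01 in the authors' deposited table. For the other members the nearest listed gene was between 1762807 bases (Slc15a3, for Ahnak) and 3704916 bases (Rnase4, for Lgals3) away. The longest basic protein-coding GENCODE M21 transcripts of Anxa1 and Anxa2 have 13 exons each and that of Lgals3 has 6. The Ahnak transcript of 18100 bases has 5 exons, of which 1 exon of 17498 bases holds 96.7%.

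The promoter windows of all 4 genes are shown because these genes, like 69.5% of listed genes, were lower in cells labelled as lacking MLL1. MLL1 is a methyltransferase with a domain that binds unmethylated CpG sites. Its binding and CpG methylation were not examined here, and a part of MLL1 at these promoters was not tested. Each window runs from 250 bases before to 50 bases after the RefSeq start (GRCm38.p6), 5′ to 3′ on the strand of the gene. The windows are chr19:20390622-20390921 on the minus strand for Anxa1, chr9:69453433-69453732 for Anxa2, chr19:8989034-8989333 for Ahnak and chr14:47373610-47373909 for Lgals3, the latter 3 on the plus strand. Capitals mark matches, on either strand, to motifs of several families, and no marked matches overlap. The letters searched were TGANTCA for AP-1, TGACGTCA for the cyclic AMP response element (CRE), TGTGGT for RUNX factors, GGGCGG for SP and KLF factors, CCGGAA for ETS factors, TATAAA for the TATA box and CCAAT for the box of that name.
Anxa1: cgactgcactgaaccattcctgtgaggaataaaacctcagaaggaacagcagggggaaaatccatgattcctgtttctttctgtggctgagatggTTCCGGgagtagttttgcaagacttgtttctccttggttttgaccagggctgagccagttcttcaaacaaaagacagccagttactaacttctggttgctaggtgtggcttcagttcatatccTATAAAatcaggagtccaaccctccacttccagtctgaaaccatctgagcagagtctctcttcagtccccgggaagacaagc
Anxa2: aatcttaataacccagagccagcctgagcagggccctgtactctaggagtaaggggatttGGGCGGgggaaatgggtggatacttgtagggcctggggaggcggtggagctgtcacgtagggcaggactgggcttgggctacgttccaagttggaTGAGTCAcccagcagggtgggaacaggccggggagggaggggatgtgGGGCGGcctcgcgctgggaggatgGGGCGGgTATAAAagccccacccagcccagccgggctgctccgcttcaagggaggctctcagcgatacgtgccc
Ahnak: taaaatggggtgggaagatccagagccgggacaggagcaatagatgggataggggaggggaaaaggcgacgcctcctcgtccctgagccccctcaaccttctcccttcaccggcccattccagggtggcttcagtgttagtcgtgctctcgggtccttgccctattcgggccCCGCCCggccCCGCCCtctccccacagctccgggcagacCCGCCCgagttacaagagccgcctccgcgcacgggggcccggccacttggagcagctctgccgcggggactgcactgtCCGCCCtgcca
Lgals3: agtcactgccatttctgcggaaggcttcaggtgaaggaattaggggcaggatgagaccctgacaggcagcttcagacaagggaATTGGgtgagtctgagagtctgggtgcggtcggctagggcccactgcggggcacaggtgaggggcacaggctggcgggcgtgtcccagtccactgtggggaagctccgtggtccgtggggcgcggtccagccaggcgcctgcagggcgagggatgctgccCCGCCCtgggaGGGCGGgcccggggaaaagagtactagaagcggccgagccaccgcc

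The windows differed in base composition, with that of Anxa1 apart from the others. That of Anxa1 was poor in CpG, with 3 CpG dinucleotides and 47.3% G and C, and 23.3% of all 32851 promoter windows of this length had fewer CpG. The Anxa2 window held 13 CpG (63.7% G and C), that of Lgals3 18 (67.0%) and that of Ahnak 22 (67.3%), and 62.1%, 70.3% and 76.9% of all windows had fewer. The median of all windows was 7 CpG and 52.7% G and C. Both annexin windows held a TATA box match and the other two held none, against 13.6% of all windows. The match began 32 bases before the RefSeq start in Anxa1 and 17 bases before it in Anxa2. The SP/KLF letters occurred 3 times in the Anxa2 window, 4 times in that of Ahnak and 2 times in that of Lgals3, with no match in Anxa1, against 35.7% of all windows with at least 1 match. Anxa2 alone among the 4 held an AP-1 match, 95 bases before the start, against 7.81% of all windows. Anxa1 held 1 ETS match (14.9% of all windows) and Lgals3 held 1 CCAAT match in reverse (37.4%), and none of the 4 held the CRE letters (1.79%) or the RUNX letters (16.8%). These matches describe the letters only. The gene models of Anxa1 and Lgals3 in the deposited table start upstream of the printed windows, so these windows do not cover every annotated start.

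**Figure D1:**
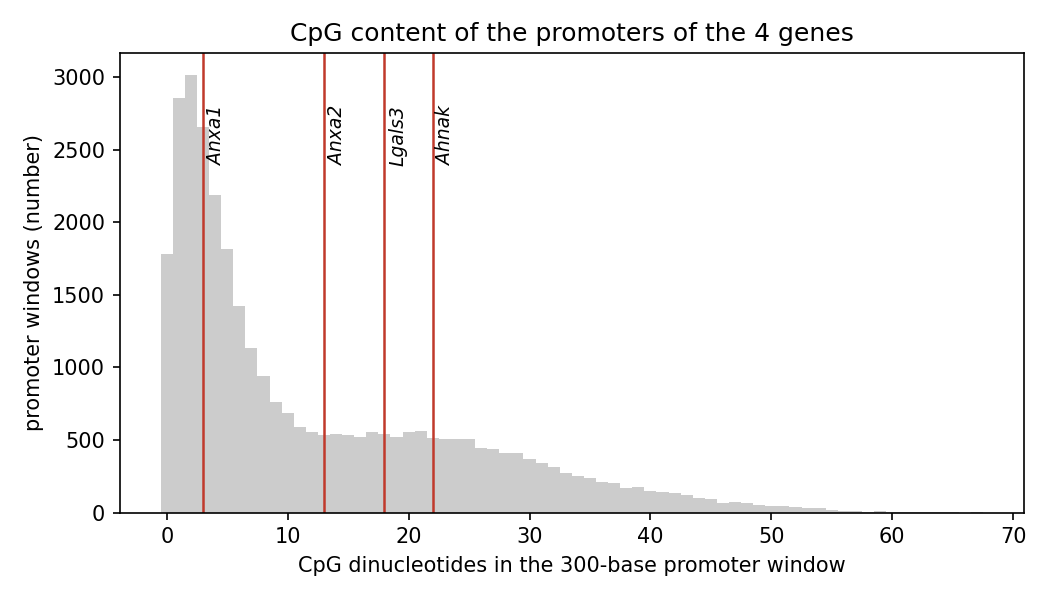
Number of CpG dinucleotides (x axis) in 300-base promoter windows, with the number of windows on the y axis (grey bars, all 32851 RefSeq windows). Red lines mark Anxa1 at 3, Anxa2 at 13, Lgals3 at 18 and Ahnak at 22, so Anxa1 lies among the CpG-poor windows and the other genes above the median of 7.

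Anxa1 had the fewest reads of the 4 genes. Its normalized count was 11.4 in YFP-positive mouse 1 and 44.5 in YFP-positive mouse 2, against 132 in YFP-negative mouse 1 and 186 in YFP-negative mouse 2. Both YFP-positive libraries were below both YFP-negative libraries, with means of 28.0 ± 23.4 and 159 ± 38.1 (SD, n = 2 each). The limma difference on the log2(normalized count + 1) scale, YFP-positive minus YFP-negative, was -2.73 ± 0.55 (SE). Like every limma SE here, this SE is moderated over all listed genes and is not the spread of Anxa1 alone. The SD of Anxa1 within groups was 0.97 on this scale. The YFP-positive libraries themselves stood 3.89-fold apart, a wider gap on the log2 scale than in 98.2% of the listed genes. The normalized counts were whole multiples of 1 step per library, from which 11 reads were inferred for mouse 1 and 42 for mouse 2. Few low values were at hand to check that step. Exact 95% Poisson intervals from the inferred reads, which cover counting error only, were 5.71 to 20.5 and 32.1 to 60.2 normalized counts and did not overlap. The log2 difference of Anxa1 was -1.80 without YFP-positive mouse 1 and -3.67 without YFP-positive mouse 2.

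Anxa2 was the more abundant annexin gene in every library. It was counted at 402 in YFP-positive mouse 1 and 629 in YFP-positive mouse 2, and at 1778 in YFP-negative mouse 1 and 1216 in YFP-negative mouse 2. The groups did not overlap, but the nearest libraries of the 2 groups, both of mouse 2, differed by only 1.93-fold, whereas those of mouse 1 differed by 4.42-fold. The means were 516 ± 160 and 1497 ± 398 (SD, n = 2 each), and the limma log2 difference was -1.55 ± 0.34 (SE). Per kilobase of the gene length listed by the authors, Anxa2 exceeded Anxa1 by 9.39-fold and 4.56-fold in YFP-negative mice 1 and 2. In YFP-positive mice 1 and 2 the excess was 24.6-fold and 9.87-fold, and the 24.6-fold value rests on 11 inferred Anxa1 reads. Isoforms of other lengths would change these ratios. Within each mouse number the excess of Anxa2 over Anxa1 was thus larger in the YFP-positive library, as the fold difference of Anxa1 was the larger of the pair in both mice. The other 10 of the 12 annexin genes on the family list were not analysed here.

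Ahnak showed the smallest difference of the 4 genes. Its normalized count was 765 in YFP-positive mouse 1 and 579 in YFP-positive mouse 2, and 1378 and 1548 in YFP-negative mice 1 and 2. The 2 groups did not overlap, and 47.5% of listed genes had a smaller gap between the YFP-positive libraries. The groups had means of 672 ± 132 and 1463 ± 120 (SD, n = 2 each). The limma log2 difference was -1.13 ± 0.33 (SE), and it was -0.93 without YFP-positive mouse 2. Of the 16 membrane and cortex genes listed as partners, Ahnak itself was the only one in the table, and the other 15 were not analysed here.

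Lgals3 showed the largest fold difference in mean normalized count. It was counted at 37.4 in YFP-positive mouse 1 and 79.5 in YFP-positive mouse 2, and at 373 and 358 in YFP-negative mice 1 and 2. The YFP-negative libraries were nearly level, with a log2 gap of 0.06, and only 9.22% of listed genes had a smaller one. The YFP-positive libraries differed by 2.12-fold, a wider gap than in 88.3% of the listed genes. Their exact Poisson intervals from the inferred reads, 26.2 to 51.8 and 62.6 to 99.7 normalized counts, did not overlap. The means were 58.5 ± 29.8 and 365 ± 10.2 (SD, n = 2 each), and the limma log2 difference was -2.72 ± 0.43 (SE). The other 11 of 12 galectin and ligand genes, and all 3 formyl peptide receptor genes through which annexin A1 acts, were not analysed here.

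**Figure D2:**
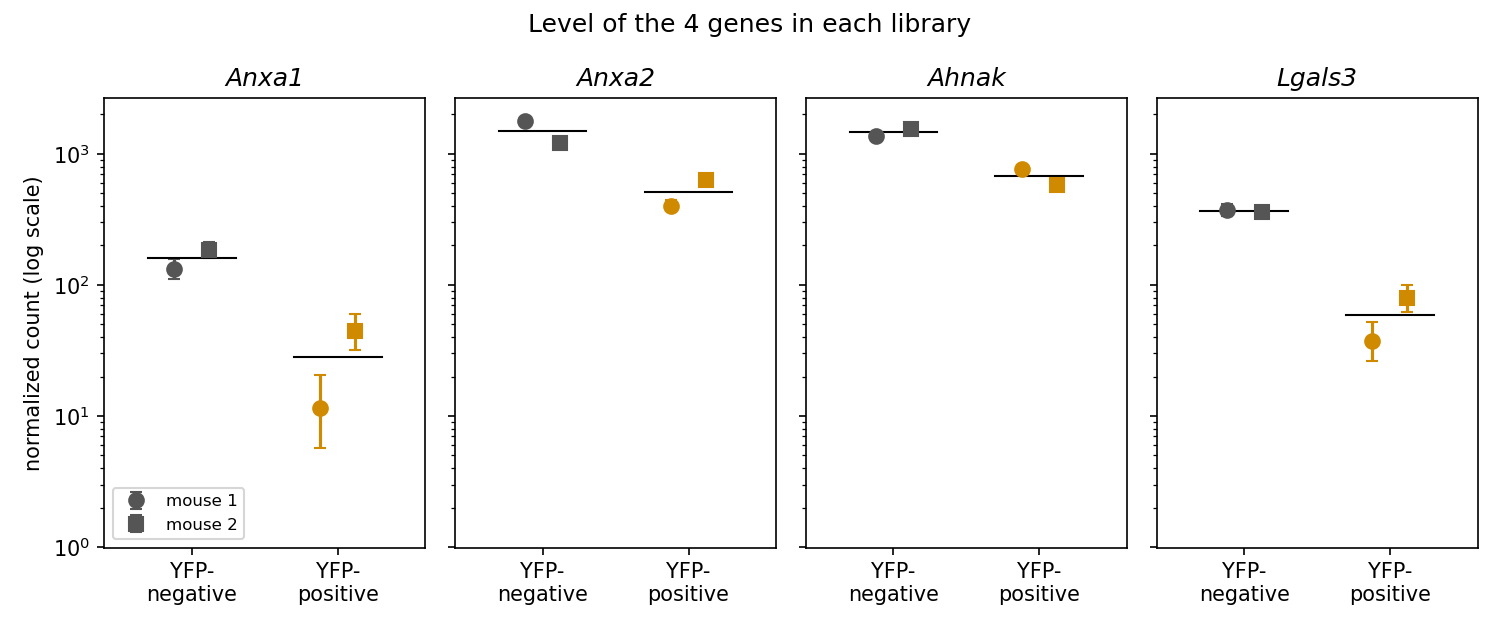
Normalized count (y axis, log scale) of each gene in the YFP-negative (grey) and YFP-positive (orange) libraries, with circles for mouse 1 and squares for mouse 2. Bars are exact 95% Poisson intervals from the inferred reads, and black lines are group means. Every YFP-positive value lies below both YFP-negative values of its gene, and the widest spread within a group is that of Anxa1 in YFP-positive Tregs, from 11.4 to 44.5.

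Per kilobase of listed gene length, the order of the genes in YFP-negative Tregs was Anxa2 (401 ± 107 normalized counts per kilobase), Lgals3 (197 ± 5.49), Ahnak (78.9 ± 6.46) and Anxa1 (61.1 ± 14.6; SD, n = 2 each). At the listed lengths the values of Ahnak and Anxa1 did not overlap, but their means differed by about as much as the spread of Anxa1. In YFP-positive Tregs the order was Anxa2 (138 ± 42.9), Ahnak (36.2 ± 7.11), Lgals3 (31.5 ± 16.0) and Anxa1 (10.7 ± 8.97). Lgals3 was above Ahnak in both YFP-negative libraries. In YFP-positive Tregs the pair was not separated, since Lgals3 was lower in mouse 1 (20.1 against 41.3 per kilobase) and higher in mouse 2 (42.8 against 31.2). Anxa2 made up 59.4% and 48.4% of the summed level per kilobase of the 4 genes in YFP-negative mice 1 and 2, and 62.1% and 64.9% in YFP-positive mice 1 and 2. These levels rest on the length listed for all exons of a gene, and isoforms of other lengths would change them. The listed lengths are 2608 bases for Anxa1, 1858 for Lgals3 and 18543 for Ahnak. Their longest basic protein-coding transcripts have 1674, 1419 and 18100 bases. With those lengths the mean of Anxa1 would lie above that of Ahnak in YFP-negative Tregs. The mean of Lgals3 would then lie above that of Ahnak in YFP-positive Tregs, so neither order is settled.

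Within each mouse number, the direction was the same for all 4 genes, as for 100% of listed genes. The log2 differences in mouse 1 and mouse 2 were -3.42 and -2.04 for Anxa1, -3.28 and -2.16 for Lgals3, and -2.14 and -0.95 for Anxa2. In these 3 genes mouse 1 showed the larger difference, by more than 1 on the log2 scale. Ahnak ran the other way, with -0.85 in mouse 1 and -1.42 in mouse 2. Among all 196 lower listed genes, 161 (82.1%) had the larger difference in mouse 1, with medians of -2.19 in mouse 1 and -1.60 in mouse 2. Anxa1, Anxa2 and Lgals3 thus shared the order of most lower genes, and Ahnak was among the 35 without it.

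**Figure D3:**
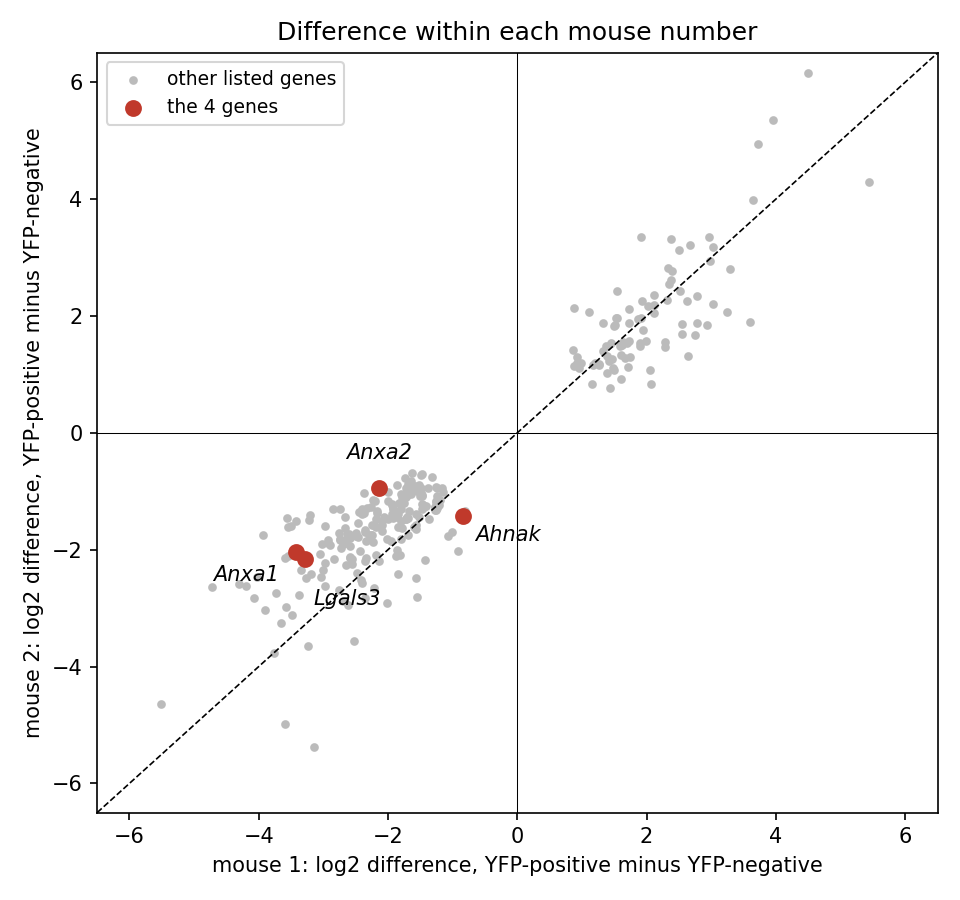
Log2 difference between YFP-positive and YFP-negative Tregs in mouse 1 (x axis) and mouse 2 (y axis) for the 282 listed genes, with the 4 genes in red and equality as a dashed line. Anxa1, Lgals3 and Anxa2 lie above the line, with larger negative values in mouse 1, and Ahnak at -0.85 and -1.42 lies below it.

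The 4 genes were not each other's closest matches over the libraries. Likeness was the Euclidean distance between log2(normalized count + 1) values over the 4 libraries after subtracting the mean of each gene, among 222 other protein-coding genes with a mean normalized count of at least 50. Lgals3 was the gene of the set nearest to Anxa1, at rank 8 (distance 0.69), and Anxa1 ranked 29 from Lgals3. The genes nearest to Anxa1 were Ecel1 (distance 0.11), which encodes a membrane metallopeptidase of neurons, Tspan17 (0.32), a tetraspanin gene, and the amino acid transporter gene Slc7a10 (0.34). Ecel1 was counted at 9.36 and 36.1 in YFP-positive and at 120 and 158 in YFP-negative mice 1 and 2. The genes nearest to Lgals3 were Cobll1 (0.18), Selenom, a selenoprotein gene (0.25), and Rab26, a vesicle GTPase gene (0.25). The genes nearest to Anxa2 were Prnp (0.24), the prion protein gene, Naprt (0.25), an enzyme gene of NAD synthesis, and S100a11 (0.30). The gene nearest to Ahnak was Ptpn13 (0.14), a tyrosine phosphatase gene. Like Ahnak it had the larger difference in mouse 2 (log2 differences of -0.81 and -1.34), which the distance itself favours. Mapre2 (0.35), which encodes a microtubule end-binding protein, and Cyfip1 (0.36), an actin regulator gene, came next. Ahnak and Anxa1 were the most distant pair of the set, at 2.28. The values were not scaled, so these distances depend in part on the size of each difference, which was already known. Those of Anxa1 also carry the counting error of its 11 inferred reads in YFP-positive mouse 1.

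Some S100 proteins are partners of annexins. Of 12 genes on the S100 list, S100a6 and S100a11 were in the table and both were lower, against 69.5% of all listed genes. S100a11, which encodes a partner of annexin A1, was counted at 1995 and 3008 in YFP-positive and at 9028 and 7567 in YFP-negative mice 1 and 2. Its groups did not overlap, and the limma log2 difference was -1.75 ± 0.39 (SE). Per kilobase it ranked 1 among the 282 listed genes in YFP-negative Tregs. S100a6 was counted at 1627 and 2599 in YFP-positive against 5493 and 5967 in YFP-negative mice 1 and 2, a log2 difference of -1.48 ± 0.38. The value of S100a10, the partner of annexin A2, was not analysed here.

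Of 25 genes on a list of antigen-experienced T cells, which holds the 4 genes themselves, 11 were in the table and 11 of 11 were lower, against 69.5% of all listed genes. Their median log2 fold change in the authors' deposited table was -1.84, against -1.89 for all lower listed genes. The other 7 were S100a6, S100a11, Id2, Prdm1, Klrg1, Cxcr3 and Ccr2. Klrg1, an inhibitory receptor gene of differentiated T cells, had a log2 difference of -2.41 ± 0.34 (limma, SE), and Cxcr3, a receptor gene for interferon-induced chemokines, one of -2.23 ± 0.37. Ccr2, a homing receptor gene, was at -1.90 ± 0.34, and the transcription regulator genes Prdm1 and Id2 were at -1.84 ± 0.37 and -1.83 ± 0.39. The fitted differences of Lgals3 and Anxa1 were larger than those of all 7 genes, although within 1 SE of that of Klrg1, and that of Ahnak was the smallest of the 11. Of 15 genes on a list of naive T cells, 4 were in the table and 4 of 4 were higher, against 30.5% of all listed genes. They were Ly6c1 (2.82 ± 0.35), Igfbp4 (1.66 ± 0.37), Bcl2, a survival gene (1.45 ± 0.38), and Bach2, a repressor gene that restrains effector differentiation (1.26 ± 0.35). The lists were drawn up with earlier results of these data known, so their directions support nothing further.

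**Figure D4:**
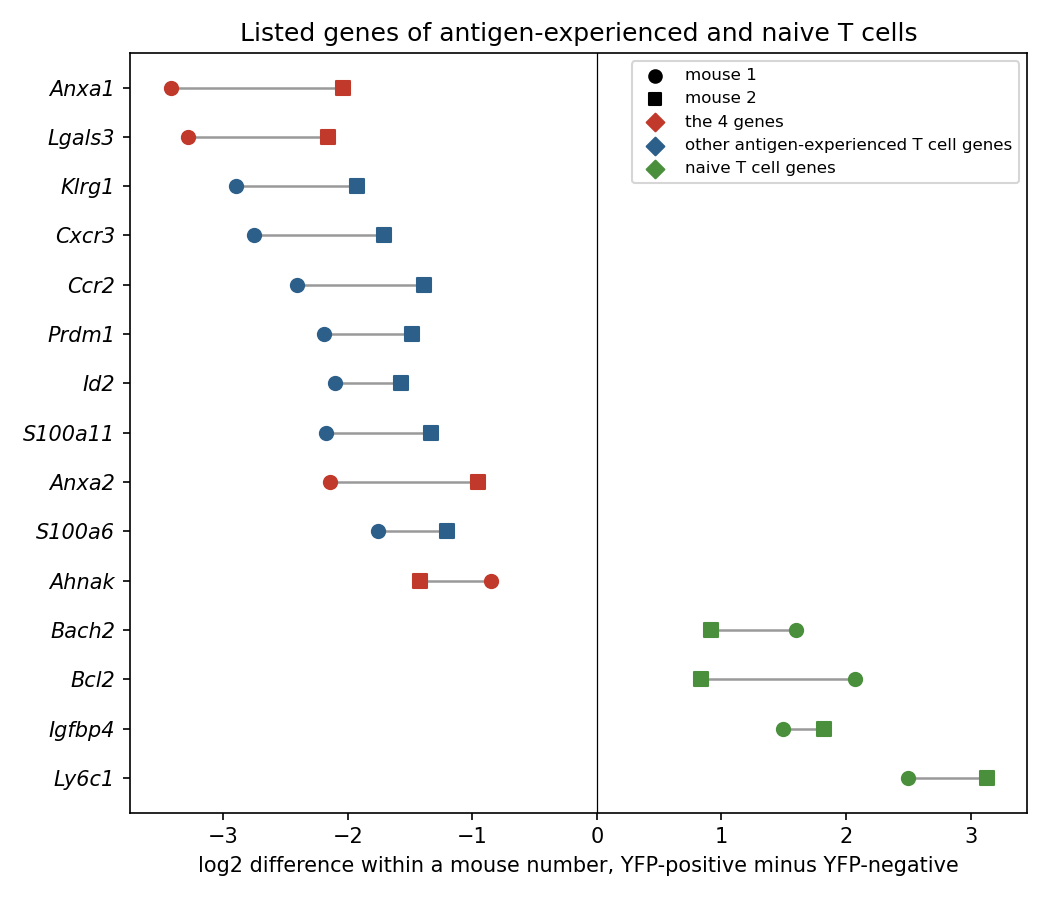
Log2 difference within mouse 1 (circles) and mouse 2 (squares), YFP-positive minus YFP-negative (x axis), for the listed genes of antigen-experienced T cells (red for the 4 genes, blue for the others) and of naive T cells (green). All 11 antigen-experienced genes lie below 0 in both mice and all 4 naive genes above 0, and Ahnak alone among the 11 has the larger difference in mouse 2.

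Galectin-3 and annexin A1 are also abundant in myeloid cells, so markers of other cells are given beside them. Of 17 myeloid markers, 1 was in the table, Ccr2, which T cells express too, at 294 and 537 in YFP-positive and 1562 and 1407 normalized counts in YFP-negative mice 1 and 2. Of 11 B and plasma cell markers, 1 was in the table, Igkc, the immunoglobulin kappa constant gene, at 249 and 280 against 1503 and 1072. Of 10 CD8 T and natural killer cell markers, 1 was in the table, Gzma, a granzyme gene, at 7.28 and 37.1 against 109 and 253. Of 9 stromal, endothelial and epithelial markers, Pecam1 was higher (1443 and 1340 against 552 and 658) and Epcam was lower (374 and 481 against 1291 and 1086). Ccr2, Igkc, Gzma and Epcam were thus lower, like the 4 genes and like 69.5% of all listed genes. All of these lower markers had the larger difference in mouse 1, as did Anxa1, Anxa2 and Lgals3 and 82.1% of all lower listed genes. A purity of 95% and 300000 sorted cells are recorded for every library. The other markers, those that define macrophages and neutrophils among them, were not analysed here, and the part of such cells in the differences was not tested.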

How the data were processed

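Per the submitters' processing notes, reads were handled with HISAT2 2.0.5 (mm10), featureCounts 1.5.0-p3, StringTie 1.3.3b and DESeq2 1.16.1, although DEGSeq 1.16.1 stands in the design text. No source used here gives the strand setting. The signal columns of the deposited table hold read counts per gene after division by a size factor of the library. All values were whole multiples of 1 step per library, within 0.01 reads, and reads were inferred from it. The listed genes held 196337 to 329350 reads per library, which is not the depth. The authors' deposited log2 fold changes, p-values and adjusted p-values had been used to select the 282 genes, with adjusted p up to 0.0497.

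The fit was made with limma 3.58.1 (R 4.3.3) on log2(value + 1) over all 282 genes with a variance trend, Benjamini-Hochberg adjustment and no block. Each SE is moderated, so it draws on the variance of the other listed genes as well as on that of the gene. The fit was also run on simulated counts, only to check that large changes were recovered in the right direction. That run did not imitate a table of selected genes. Titles give both populations the same mouse numbers, taken as the pairing, and deviations of same-numbered libraries correlated over genes (Pearson's r = 0.395, Spearman's rho = 0.411). Genes are not independent replicates.

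The 4 genes and all lists were chosen with earlier results of these data known. A gene of the naive T cell list is not reported here and was taken out of the list before counting. Also named were all remaining list genes in the table and, per member, the 3 most alike genes. Promoters came from RefSeq (GRCm38.p6), and 4 of 4 genes matched. No 31-base word of the members' coding transcripts occurred in another gene's GENCODE M21 transcript. The antisense gene Gm16144 shares 98 exon bases with Anxa2, and without strand their reads could not be told apart.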

Additional observations from a re-analysis of the deposited data

How the results depend on the processing

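The log2 differences of Anxa1, Anxa2, Ahnak and Lgals3 kept their direction in all 40 combinations of gene and alternative and moved by less than 1 SD within groups. Neither shows stability. The direction was fixed in advance, since the groups do not overlap, and with 2 libraries per group leaving 1 out cannot move a difference by more than this SD. When 1 library was left out, with the lone library assumed to vary like the other group, the values ran from -3.67 to -1.80 for Anxa1, -1.87 to -1.22 for Anxa2, -1.33 to -0.93 for Ahnak and -3.25 to -2.19 for Lgals3. For each of the 4 genes both ends were reached by leaving out a YFP-positive library. With the mouse number as a replicate block the differences were the same, -2.73, -1.55, -1.13 and -2.72. This too was fixed in advance, since each mouse number has 1 library in each group. The SE were 0.46, 0.34, 0.27 and 0.36. A pseudocount of 10 gave -2.29 for Anxa1 and -2.53 for Lgals3, since low counts weigh less. By limma, 279 of 282 listed genes passed with the block and 257 to 269 with 1 library left out. A planned count model on the inferred reads was not run, because the values are normalized counts with few low values from which reads could be checked.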
